A study of Homo sapiens with 10 samples.

Results

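The RNA levels of 10 genes of the Polycomb repressive complexes were followed across clones of DLD-1 cells in which lamin B1 (LMNB1) had been knocked down. A gene was measured where the array held a probe annotated to that gene symbol alone, and the probe with the highest mean was taken where there were several. By that rule 8 of the 10 genes were measured, among 14232 genes in all. They were EZH2, EZH1, EED and SUZ12 of Polycomb repressive complex 2 and BMI1, RING1, CBX2 and PHC2 of Polycomb repressive complex 1. RNF2 and CBX8 had no single-symbol probe in the annotation used here, and no value is given for them. All 8 measured genes passed the filter on low values, a mean log2 level of at least 5.96 over the clones.

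Polycomb proteins keep developmental genes silent by modifying histones. Complex 2 methylates a lysine of histone H3 through its catalytic subunit EZH2 or the paralogue EZH1, and needs the scaffold subunits EED and SUZ12. Complex 1 attaches ubiquitin to histone H2A through the RING-type subunits RING1 and RNF2, which BMI1 assists. CBX proteins such as CBX2 and CBX8 bind the methylated histone, and PHC2 lets complexes cluster. EZH2 and BMI1 are often abundant in proliferating and tumour cells, including those of the colon.

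DLD-1 is an established line of colorectal adenocarcinoma cells, and all clones and cultures were of this line. Each transfected clone came from 1 cell and was kept in puromycin, the wild type culture without it. The controls were 1 array of wild type cells and 3 arrays of separate clones carrying the empty vector. Construct V2LHS_62673, an shRNA against LMNB1, was measured in clones 8, 9 and 12 with 1 array each. Construct V2LHS_62675, a second shRNA against LMNB1, was measured on 3 arrays of a single clone. Sample descriptions and the design text give that clone as clone 2, while titles call the 3 arrays biological replicates of clone 12. It is called clone 2 here, and its 3 arrays were averaged, which left 8 clone-level samples, 4 knockdown clones and 4 controls. With 1 clone, nothing seen with V2LHS_62675 can be told apart from what is particular to that clone.

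All values are log2 levels as deposited, so a difference of 1 is a 2-fold difference. The probe annotated to LMNB1 and PCIF1, the only one for the target, read 8.84 to 9.52 in the controls and 7.45 to 7.79 in the knockdown clones. Its difference of -1.46 (SE 0.17, n = 4 against 4) had an adjusted p of 0.0603 in limma. The array of clone 8 was unlike the rest. It correlated at 0.915 to 0.926 with the others, which correlated at 0.986 to 0.995 among themselves, and its median level was 7.62 against 7.34 to 7.41. Differences are therefore given with and without clone 8. Of 11 markers of colon epithelium, 10 passed the filter on low values, with KRT8 at 12.64, EPCAM at 11.48, CDH1 at 11.23 and KRT20 below it at 5.01. The fibroblast markers VIM (5.41), DCN (4.21) and LUM (3.94), the leukocyte marker PTPRC (3.82 to 4.28 over the clones) and the endothelial marker PECAM1 (4.74) were under the filter level. Other markers were over it: 4 of 7 for fibroblasts (COL1A1 at 7.63, COL1A2 at 7.19, PDGFRB at 7.02 and COL3A1 at 6.76), 2 of 4 for leukocytes (CD68 at 7.79 and CD14 at 7.09) and 1 of 3 for endothelium (CDH5 at 6.16).

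The first comparison asked whether Polycomb genes differed between lamin B1 knockdown clones and negative controls. BMI1 lay lower in all 4 knockdown clones than in any control, at 74.6% of the control level. EED lay higher in all 4, at 123% of the control level, and EZH1 lay lower in all 4 by a far smaller margin. EZH2 and SUZ12 were low in clone 8 and within or near the control range in the other 3 clones. RING1, CBX2 and PHC2 were high in clone 8 only. None of the 8 genes passed an adjusted p of 0.05 in limma, adjusted over 11200 features, where 0% of all features passed. At an unadjusted p under 0.05 there were 256 features (2.29%), BMI1 and EED among them. Of the 8 genes 4 were higher and 4 lower, with a median of -0.05 against 0.04 over all features. Without clone 8 again 0% passed, with 724 features (6.46%) at an unadjusted p under 0.05. Then 1 of the 8 was higher and 7 were lower, with a median of -0.11 against 0.00496 over all features. With the empty vector clones alone as controls, also without clone 8, EZH2 (0.06) and SUZ12 (0.03) were higher instead. The shares of all features that were higher or lower were not counted.

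EED alone of the 8 lay wholly above the controls, which 1.59% of all features did. BMI1 and EZH1 lay wholly below them, which 1.54% of all features did. Without clone 8 EED again lay wholly above (3.44% of all features), and BMI1, EZH1 and CBX2 wholly below (2.66% of all features). Exact two-sided permutation tests over the 70 regroupings of 4 against 4 gave p = 0.0286 for BMI1, EED and EZH1 alike, the smallest p this design allows. The same test gave p between 0.371 and 1 for the other 5 genes, and none of these values is adjusted for the 8 genes tested. Where nothing says that clones came from separate transfections, p-values measure only the spread between these clones.

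**Figure D1:**
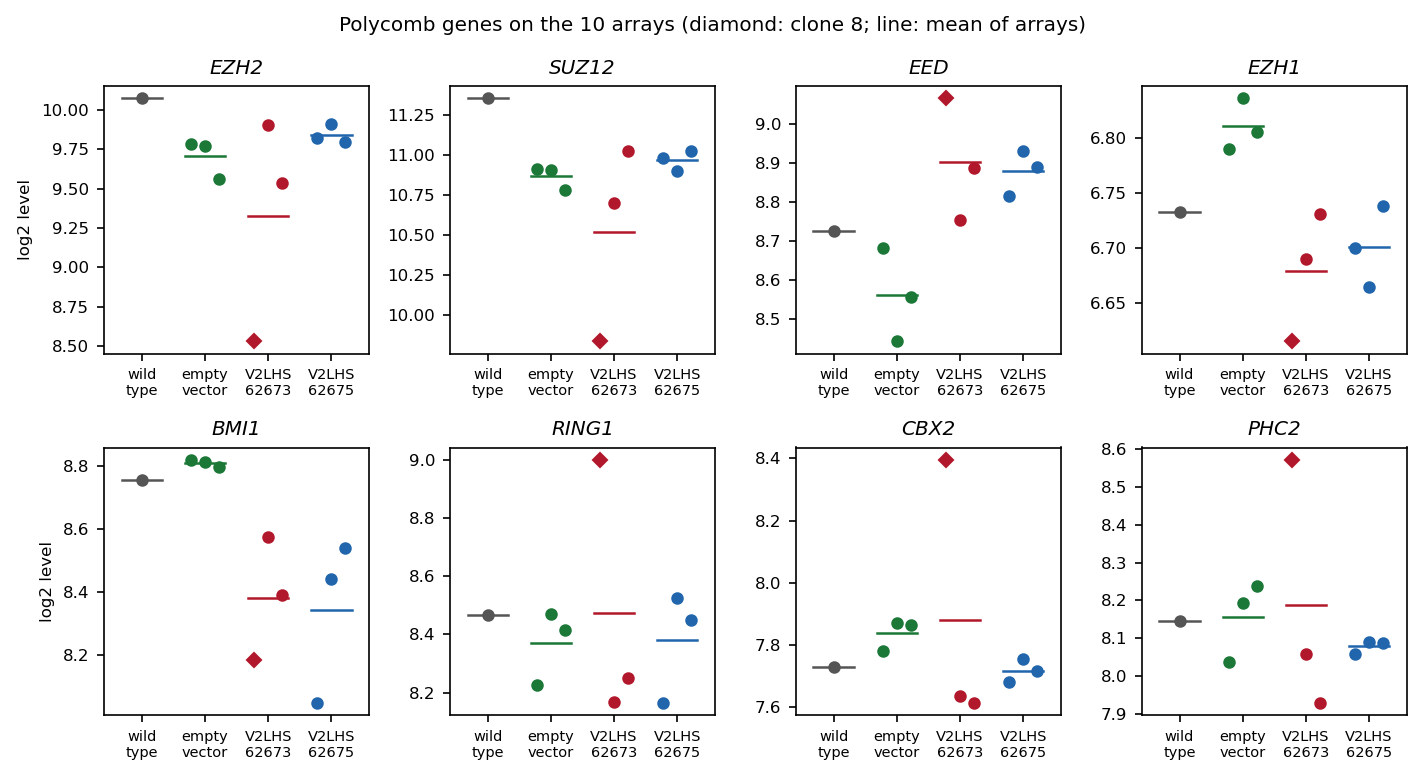
Each panel plots the log2 level of 1 Polycomb gene (y axis, scale set per gene) on each of the 10 arrays, grouped on the x axis as wild type, empty vector, V2LHS_62673 and V2LHS_62675. Points are arrays, the diamond is clone 8 and the line is the mean of a group's arrays; BMI1 is at 8.18 to 8.57 in the V2LHS_62673 clones against 8.80 to 8.82 in the empty vector clones, and clone 8 is the lowest point for EZH2, SUZ12 and EZH1 and the highest for EED, RING1, CBX2 and PHC2.

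BMI1 is the complex 1 subunit that pairs with RING1 or RNF2 and raises their ubiquitin ligase activity, and it is known for repressing the INK4 cell cycle inhibitors. Its level was 8.76 in wild type cells and 8.82, 8.81 and 8.80 in the empty vector clones. It was 8.18 in clone 8, 8.57 in clone 9, 8.39 in clone 12, and 8.05, 8.44 and 8.54 on the 3 arrays of clone 2. The controls were tightly grouped, every knockdown array was below all of them, and 0.18 separated the nearest knockdown clone from the nearest control. Means were 8.37 ± 0.16 (SD, n = 4) in knockdown and 8.80 ± 0.03 (SD, n = 4) in controls. BMI1 thus differed by -0.42 (SE 0.12, 95% interval -0.69 to -0.15, adjusted p = 0.761 in limma). Without clone 8 it was -0.36 (SE 0.08, 95% interval -0.54 to -0.18, adjusted p = 0.631), 77.9% of the control level.

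A further probe on chromosome 10 is annotated to both COMMD3 and BMI1, which are neighbours there and share a read-through gene, COMMD3-BMI1. It did not follow the BMI1 probe. It read 8.08 in wild type cells and 7.56, 7.72 and 7.78 in the empty vector clones. The knockdown values were 8.32 in clone 8, 7.33 in clone 9, 7.13 in clone 12, and 7.57, 8.27 and 8.48 on the arrays of clone 2. Clones 9 and 12 were below all controls on both probes, whereas clone 8 and 2 of the 3 arrays of clone 2 were above all controls on the shared probe and below all on the BMI1 probe. The difference on the shared probe was -0.06 (SE 0.26, 95% interval -0.65 to 0.52, adjusted p = 0.918), and -0.26 (SE 0.22, 95% interval -0.76 to 0.23) without clone 8. Signal of COMMD3, the read-through gene and BMI1 cannot be told apart on that probe.

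**Figure D2:**
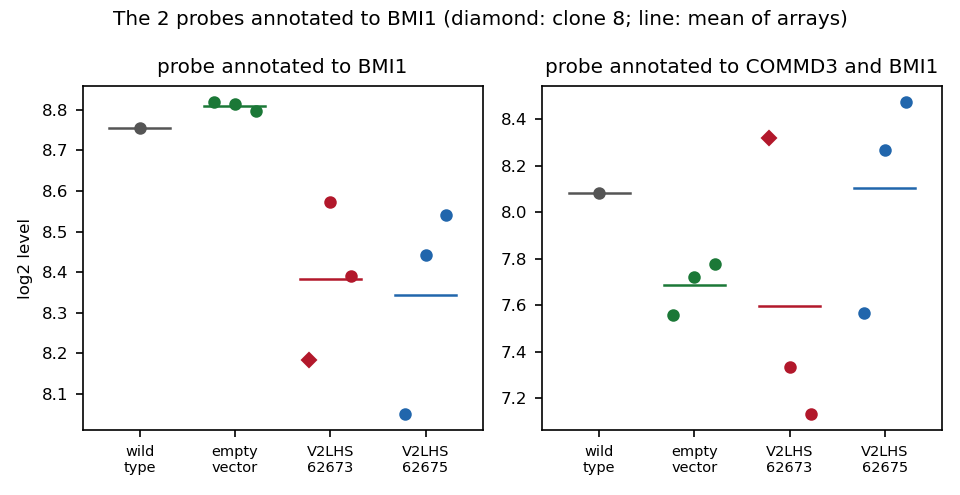
Log2 levels (y axis, scale set per probe) on the 10 arrays for the probe annotated to BMI1 alone (left) and for the probe annotated to COMMD3 and BMI1 (right), with arrays as points, clone 8 as a diamond and the mean of a group's arrays as a line. On the left every knockdown array is below every control, and on the right clone 8 (8.32) and 2 arrays of clone 2 (8.27 and 8.48) are above the highest control (8.08).

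EED is the complex 2 subunit that binds methylated histone H3 and stimulates the enzyme. Its level was 8.73 in wild type cells and 8.68, 8.44 and 8.56 in the empty vector clones. It was 9.07 in clone 8, 8.75 in clone 9, 8.89 in clone 12, and 8.81, 8.93 and 8.89 on the arrays of clone 2. Every knockdown array was above every control, but clone 9 exceeded the wild type culture by 0.03 only. Means were 8.90 ± 0.13 (SD, n = 4) in knockdown and 8.60 ± 0.13 (SD, n = 4) in controls. EED thus differed by 0.30 (SE 0.12, 95% interval 0.02 to 0.57, adjusted p = 0.761), and 0.24 without clone 8 (SE 0.09, 95% interval 0.04 to 0.44, adjusted p = 0.752).

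EZH1, the second methyltransferase of complex 2, which is typical of cells that have stopped dividing, varied least of the 8. It was 6.73 in wild type cells and 6.79, 6.84 and 6.81 in the empty vector clones. It was 6.62, 6.69 and 6.73 in clones 8, 9 and 12 and 6.70, 6.66 and 6.74 on the arrays of clone 2. The groups were separated by 0.0021, and 1 array of clone 2 lay above the wild type culture. The difference was -0.11 (SE 0.11, 95% interval -0.34 to 0.13), and -0.08 without clone 8 (SE 0.07, 95% interval -0.23 to 0.07).

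BMI1 and EED were the 2 genes whose groups lay apart with intervals that did not include 0, and EZH2 and SUZ12 the 2 that were at least 2-fold lower in clone 8 than in the empty vector clones, so the 250 bases before the start of each are shown (RefSeq, GRCh38.p14). RefSeq's table held entries for 8 of the 10 genes, CBX2 and CBX8 being the others. Windows lie at chr10:22320849-22321098 (plus strand, BMI1), chr11:86244503-86244752 (plus strand, EED), chr7:148884292-148884541 (minus strand, EZH2) and chr17:31936757-31937006 (plus strand, SUZ12). RefSeq's table held a further window for BMI1 and for EZH2, downstream of the one shown, and the outermost start was taken. Each window is upstream of an annotated start and is written 5′ to 3′ on the gene's strand. Capitals mark matches to 3 motifs searched on both strands: an E2F site (TTTCCCGC, TTTGGCGC, TTTCGCGC or TTTGCCGC), the CCAAT box (CCAAT) and an ETS site (CCGGAAG). These motifs do not overlap in the windows shown.
BMI1: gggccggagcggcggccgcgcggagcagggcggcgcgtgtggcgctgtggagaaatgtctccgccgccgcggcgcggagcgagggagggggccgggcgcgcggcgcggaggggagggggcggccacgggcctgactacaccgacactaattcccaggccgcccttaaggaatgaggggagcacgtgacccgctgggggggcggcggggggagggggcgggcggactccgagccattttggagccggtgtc
EED: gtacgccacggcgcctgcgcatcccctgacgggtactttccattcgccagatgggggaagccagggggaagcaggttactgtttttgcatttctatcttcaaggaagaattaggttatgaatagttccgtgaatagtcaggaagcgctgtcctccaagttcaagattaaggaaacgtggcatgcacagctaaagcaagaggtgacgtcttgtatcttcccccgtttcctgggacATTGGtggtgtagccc
EZH2: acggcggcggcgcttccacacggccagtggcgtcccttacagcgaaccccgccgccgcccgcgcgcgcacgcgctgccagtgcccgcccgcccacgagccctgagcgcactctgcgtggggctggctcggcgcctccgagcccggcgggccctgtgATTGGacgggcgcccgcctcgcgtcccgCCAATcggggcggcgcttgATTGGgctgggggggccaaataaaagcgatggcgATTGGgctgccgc
SUZ12: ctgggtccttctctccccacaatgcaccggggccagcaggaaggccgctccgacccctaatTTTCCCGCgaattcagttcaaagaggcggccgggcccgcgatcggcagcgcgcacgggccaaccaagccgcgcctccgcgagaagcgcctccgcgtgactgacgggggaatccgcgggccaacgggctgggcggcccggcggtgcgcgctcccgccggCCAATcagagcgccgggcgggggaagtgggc
EZH2 held 4 CCAAT boxes, EED and SUZ12 held 1 each, and SUZ12 also held 1 E2F match, while BMI1 held no match to these letters. The further windows of BMI1 and EZH2 held no match either. Among the genes not shown, EZH1 also held 1 E2F match. PHC2 held 1 ETS match in 1 window and 2 CCAAT boxes in the other, while RING1 and RNF2 held no match. Over all 35116 windows of the same length in RefSeq's table, 11240 held the CCAAT box, 979 (2.79%) the E2F match and 2991 (8.52%) the ETS match. CpG dinucleotides numbered 35 for BMI1, 38 for EZH2 and 34 for SUZ12, against 11 for EED and a median of 11 over all windows. The further windows held 54 for BMI1 and 39 for EZH2. Windows of the other genes held 34 for RING1, 36 and 21 for PHC2, 26 for EZH1 and 34 for RNF2. A count above that of EED was thus not particular to BMI1. These are descriptions of sequence, and no binding or methylation was measured.

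EZH2 is the main histone H3 methyltransferase of Polycomb of dividing cells. Its level was 10.07 in wild type cells and 9.78, 9.77 and 9.56 in the empty vector clones. It was 8.53 in clone 8, 9.91 in clone 9, 9.54 in clone 12, and 9.82, 9.91 and 9.80 on the arrays of clone 2. Clone 8 was the lowest, clone 12 lay just under the lowest control and the others were inside the control range. The difference was -0.34 (SE 0.28, 95% interval -0.97 to 0.28), and -0.03 without clone 8 (SE 0.13, 95% interval -0.34 to 0.27, adjusted p = 0.981).

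SUZ12, the subunit that holds complex 2 together, was likewise lowest in clone 8. It was 11.36 in wild type cells and 10.91, 10.90 and 10.78 in the empty vector clones. It was 9.83 in clone 8, 10.70 in clone 9, 11.03 in clone 12, and 10.98, 10.90 and 11.03 on the arrays of clone 2. Wild type cells were the highest, clone 8 the lowest and clone 9 just under the controls. The difference was -0.36 (SE 0.26, 95% interval -0.93 to 0.22), and -0.09 without clone 8 (SE 0.14, 95% interval -0.41 to 0.23, adjusted p = 0.941). A transcribed pseudogene, SUZ12P1, lies on the same chromosome 17, and whether it adds to this probe's signal was not tested.

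**Figure D3:**
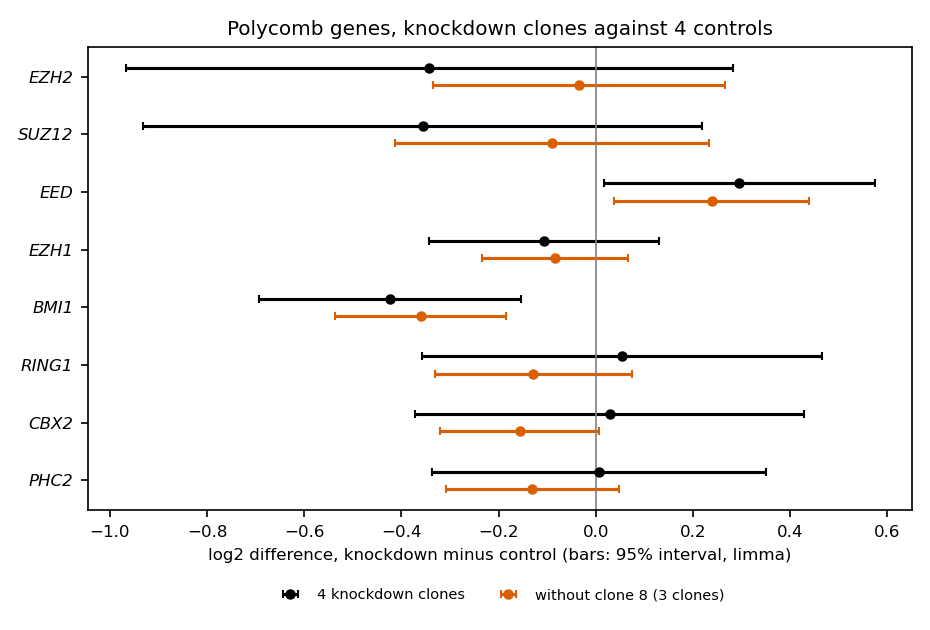
Log2 difference of the 4 knockdown clones from the 4 controls (x axis) for each Polycomb gene (y axis), as the limma estimate with its 95% interval, for all clones (black) and without clone 8 (orange). BMI1 (-0.42 and -0.36) and EED (0.30 and 0.24) have intervals on 1 side of 0 in both, and the estimates of EZH2 and SUZ12 move from -0.34 and -0.36 to -0.03 and -0.09 without clone 8.

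RING1, the ubiquitin ligase subunit of complex 1, was 8.47 in wild type cells and 8.23, 8.47 and 8.42 in the empty vector clones. It was 9.00 in clone 8, 8.17 in clone 9, 8.25 in clone 12, and 8.17, 8.52 and 8.45 on the arrays of clone 2. Only clone 8 was clearly outside the controls. The difference was 0.05 (SE 0.18, 95% interval -0.36 to 0.47), and -0.13 without clone 8 (SE 0.09, 95% interval -0.33 to 0.07).

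CBX2, a reader of methylated histone H3 that also compacts chromatin, was 7.73 in wild type cells and 7.78, 7.87 and 7.87 in the empty vector clones. It was 8.40 in clone 8, 7.64 in clone 9, 7.61 in clone 12, and 7.68, 7.75 and 7.72 on the arrays of clone 2. Clone 8 was above all controls, and the other 3 clones were below them by 0.013 at the nearest. The difference was 0.03 (SE 0.18, 95% interval -0.37 to 0.43), and -0.16 without clone 8 (SE 0.07, 95% interval -0.32 to 0.01, adjusted p = 0.775). PHC2, whose SAM domain joins complexes into chains, had 8.14 in wild type cells and 8.04, 8.19 and 8.24 in the empty vector clones. It had 8.57 in clone 8, 8.06 in clone 9, 7.93 in clone 12, and 8.06, 8.09 and 8.09 on the arrays of clone 2. Apart from clone 8 the groups overlapped. The difference was 0.01 (SE 0.15, 95% interval -0.34 to 0.35), and -0.13 without clone 8 (SE 0.08, 95% interval -0.31 to 0.05).

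The values of clone 8 were set against the level of each gene. In clone 8 EZH2 was 2.26-fold and SUZ12 2.05-fold lower than the mean of the empty vector clones (log2 differences of -1.17 and -1.03), a 2-fold lower level shared with 11.7% of all features. BMI1 lay lower by 0.63 and EZH1 by 0.20 on the log2 scale. RING1 lay higher by 0.63, CBX2 by 0.56, EED by 0.51 and PHC2 by 0.42, none by 2-fold, which 4% of all features reached. The shift of clone 8 went with the level on the array. Genes between 5 and 7 in the empty vector clones had a median difference of 0.57 in clone 8, those between 7 and 8 of 0.41, between 8 and 9 of -0.06, between 9 and 10 of -0.49 and those at 10 or over of -0.84. For the mean of clones 9 and 12 the same medians were all between -0.03 and 0.03.

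Placed among genes of their own level, SUZ12 had 37.4% of 1250 genes below it and EZH2 19.3% of 1707. BMI1 had 21.8% of 2510 genes below it, EED 82.6%, RING1 87.5% and PHC2 77.2% of the same 2510. CBX2 had 63.4% of 3056 genes below it. EZH1 had 5.64% of 2677 genes below it, since most genes of its level were higher in clone 8. The low EZH2 and SUZ12 and the high CBX2 of clone 8 were thus on the side taken by most genes of their level. How far that shift accounts for each gene's value was not tested.

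**Figure D4:**
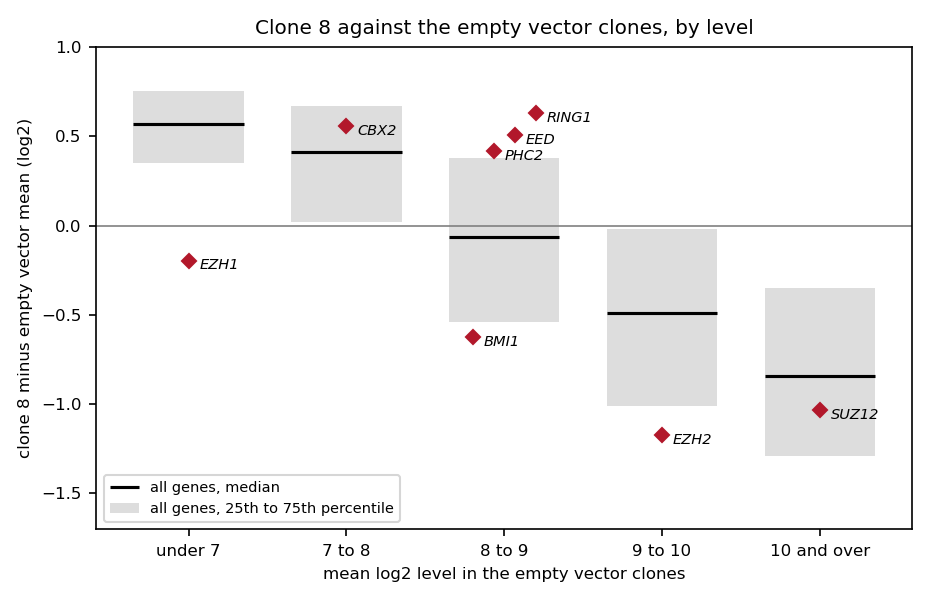
Log2 difference of clone 8 from the mean of the empty vector clones (y axis) for genes grouped by their mean log2 level in those clones (x axis), with the black line as the median and the grey bar from the 25th to the 75th percentile of all genes of the group, and diamonds as Polycomb genes. The median goes from 0.57 at the lowest levels to -0.84 at the highest; SUZ12 (-1.03) and CBX2 (0.56) lie inside their grey bars, EZH1 (-0.20), BMI1 (-0.63) and EZH2 (-1.17) under theirs, and EED (0.51), RING1 (0.63) and PHC2 (0.42) above theirs.

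The second question was whether the 2 shRNA constructs gave the same picture against the empty vector clones, in a fit of the 4 groups. These comparisons share the 3 empty vector arrays. For V2LHS_62673 BMI1 stood at -0.43 (SE 0.15, adjusted p = 0.742), EED at 0.34 (SE 0.16) and EZH1 at -0.13 (SE 0.13). EZH2 stood at -0.38, SUZ12 at -0.35, RING1 at 0.10, CBX2 at 0.04 and PHC2 at 0.03. None passed, and 0% of all features did. With clones 9 and 12 alone BMI1 stood at -0.33 (SE 0.10, adjusted p = 0.135), EED at 0.26 (SE 0.10, adjusted p = 0.255) and CBX2 at -0.21 (SE 0.09, adjusted p = 0.279). EZH2 was then at 0.02 (SE 0.12) and SUZ12 at -0.0028 (SE 0.11), RING1 and PHC2 both at -0.16 and EZH1 at -0.10. Again none of the 8 passed, where 0.991% of all features did.

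For clone 2 of V2LHS_62675 BMI1 stood at -0.47 (SE 0.22, adjusted p = 1.00), EED at 0.32 (SE 0.22) and EZH1 at -0.11 (SE 0.19). EZH2 was at 0.14, SUZ12 at 0.10, RING1 at 0.01, CBX2 at -0.12 and PHC2 at -0.08. With the spread estimated without clone 8, BMI1 had an SE of 0.12 and an adjusted p of 0.0625, and EED an SE of 0.13 and an adjusted p of 0.223. None of the 8 passed in either fit, where 0% and 3.74% of all features did. The single clone was assumed to vary like clones of the other groups. BMI1 was thus lower and EED higher with each construct by similar amounts, without passing.

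Tested directly, V2LHS_62675 minus V2LHS_62673 was -0.04 for BMI1 (SE 0.22, 95% interval -0.55 to 0.47) and -0.02 for EED (SE 0.22, 95% interval -0.54 to 0.49). EZH2 (0.52, SE 0.48) and SUZ12 (0.45, SE 0.42) differed the most, and stood at 0.12 (SE 0.17) and 0.11 (SE 0.15) without clone 8. No member passed, where 0% of all features did with clone 8 and 2.16% without it. The shared COMMD3 and BMI1 probe stood at 0.51 (SE 0.43) with clone 8. Without it that probe passed, at 0.87 (SE 0.14, adjusted p = 0.0177), higher in clone 2 than in clones 9 and 12.

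The 3 arrays of clone 2 did not repeat equally well for all genes. On array 1 the BMI1 probe was 0.44 and RING1 0.32 lower than the mean of arrays 2 and 3, and the shared probe was 0.81 lower. For the other 6 Polycomb genes the gap was at most 0.10, and over all features the median size of the gap was 0.15. As large a gap as 0.4 was found for 12.7% of all features. BMI1 on arrays 2 and 3 (8.44 and 8.54) was still below the lowest control.

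Wild type cells, which carry neither vector nor hairpin, differed from the empty vector clones most in SUZ12 (0.49, SE 0.42) and EZH2 (0.37, SE 0.48). With the spread estimated without clone 8 these had adjusted p = 0.0866 (SE 0.14) and adjusted p = 0.224 (SE 0.16). EED stood at 0.17, and BMI1, EZH1, RING1, CBX2 and PHC2 lay between -0.11 and 0.09. None passed, where 0% of all features did, or 3.57% without clone 8. Wild type cells were a single array.

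Other genes of the Polycomb and related pathways were read from 10 lists. No gene of any list passed in the knockdown comparison, with or without clone 8, where 0% of all features did in both. Over all features the median difference was 0.04, and 0.00496 without clone 8. The shares of all features that were higher or lower were not counted. Partners of complex 2 (8 measured over the filter) had 4 higher and 4 lower, median 0.003, and 5 higher and 3 lower without clone 8, median 0.03. The accessory subunit AEBP2 stood at 0.12 with and without clone 8 (SE 0.12 and 0.09). MTF2, another, stood at -0.16 (SE 0.21) and at 0.06 (SE 0.09) without clone 8. In clone 8 it read 8.23, against at least 8.92 in the controls. Other subunits of canonical complex 1 (7 genes) had 1 higher and 6 lower, median -0.13, with PHC3, a paralogue of PHC2, at -0.37 (SE 0.37). PHC3 was 8.19 in clone 8 against at least 9.74 in the controls, and its difference was 0.08 without clone 8. Without clone 8 the complex 1 list had a median of -0.02. Genes of variant complex 1 (19 genes) had 10 higher and 9 lower with and without clone 8, medians 0.02 and 0.0041. The subunit PCGF3 stood at -0.46 (SE 0.27), and at -0.15 (SE 0.07) without clone 8. The repressor E2F6 stood at 0.32 (SE 0.21), and at 0.11 (SE 0.09) without clone 8.

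Genes listed for removal of the 2 Polycomb marks (6 genes) had 1 higher and 5 lower, median -0.20, and 3 of each with a median of 0.01 without clone 8. Among them the histone H3 demethylase KDM6A stood at -0.45 (SE 0.45), and at 0.11 (SE 0.10) without clone 8. USP16 stood at -0.47 (SE 0.42), and at 0.05 (SE 0.10) without clone 8. USP21 stood at -0.19 (SE 0.17), and at -0.32 (SE 0.13) without clone 8. Trithorax and MLL genes, whose products counter Polycomb (13 genes), had 9 higher and 4 lower, median 0.04, and 12 higher without clone 8, median 0.12. Among them the MLL complex subunit DPY30 stood at -0.37 (SE 0.18), and at -0.19 (SE 0.08) without clone 8. It was the 1 gene of this list that was lower without clone 8. HCFC1 stood at 0.21 (SE 0.12), and at 0.17 (SE 0.08) without clone 8. KMT2B stood at 0.24 (SE 0.16), and at 0.09 (SE 0.07) without clone 8. Without clone 8, 4 genes of this list were higher and 1 lower at an unadjusted p under 0.05 in limma, which 6.46% of all features reached. DPY30 was the lower 1, and HCFC1 and KMT2B were not among the 4. SWI/SNF genes, whose remodellers also oppose Polycomb (13 genes), had 5 higher and 8 lower, median -0.02, and 6 higher and 7 lower without clone 8, median -0.01. SMARCA2, a catalytic subunit, stood at 0.23 (SE 0.14) and at 0.16 (SE 0.11) without clone 8.

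Known targets of Polycomb repression were read the same way. Of 18 HOX genes 14 were higher, median 0.14, and without clone 8 10 were higher, median 0.01. HOXB6 had the smallest p of that list, at -0.39 (SE 0.15, adjusted p = 0.761) and -0.49 without clone 8 (SE 0.11, adjusted p = 0.646). Of 50 other developmental regulators 46 were higher, median 0.14, and 32 without clone 8, median 0.03, among them OLIG2 at 0.36 (SE 0.18), and at 0.18 (SE 0.08) without clone 8. Of 5 cell cycle inhibitors, INK4 genes included, all 5 were higher with clone 8 and 1 without it. CDKN2D stood at 0.27 (SE 0.16), and at 0.13 (SE 0.08) without clone 8, and CDKN2B at 0.15 (SE 0.18) and -0.03 (SE 0.09). The mean difference of clone 8 from the empty vector clones was 0.42 for HOX genes, 0.53 for developmental regulators and 0.73 for the inhibitors. In the other 3 knockdown clones these means were between -0.14 and 0.02. Median levels of these 3 lists were 7.01, 7.13 and 7.83, in the range where most genes were higher in clone 8.

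Of 22 proliferation genes driven by E2F factors, which also drive EZH2, 12 were higher, median 0.03, and 19 without clone 8, median 0.07. UHRF1, which maintains DNA methylation, stood at 0.39 (SE 0.18), and at 0.26 (SE 0.14) without clone 8. CCNA2, a cyclin, stood at -0.37 (SE 0.27), and at -0.07 (SE 0.12) without clone 8. This list also had a mean of 0.31 in wild type cells against the empty vector clones.

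Genes most like each Polycomb gene were taken as those with the highest Pearson correlation over the 7 clone-level samples without clone 8, as a description of samples that share their groups. For BMI1 they were KHK (0.981), IPO8 (0.980) and PTCD2 (0.971), and PTCD2 (0.982) led over all 8 samples. For EED they were GPR83 (0.985), RTTN (0.977) and BLCAP (0.976), and GPR83 (0.988) led over all 8. SUZ12 was nearest to STT3B with and without clone 8 (0.996 and 0.987). For EZH2 the nearest gene was CAVIN2 (0.989), and over all 8 it was ATG3 (0.994). The nearest genes of RING1, CBX2, PHC2 and EZH1 were GPI (0.985), GGPS1 (0.997), PLAAT3 (0.979) and TACC1 (0.983), each replaced by another gene over all 8 samples. Every member, also those whose groups overlapped, had a nearest gene at 0.979 or over across the 7 samples. Each value is the highest of very many correlations over few samples, so no link between genes can be read from it.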

How the data were processed

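The deposited values were 1 log2 value per probe, a gene-level transcript cluster, on each of 10 exon arrays. The base was read from the range of values. How the authors corrected background and normalized is not stated in the sources used here, and raw intensities were not used. Probes were named from GEO's platform annotation: 14432 of 22011 probes had 1 symbol, 2408 several and 5171 none, and 14404 matched RefSeq. The probe with the highest mean stood for a gene. The 3 arrays of clone 2 were averaged. The filter was the 25th percentile of all probes' clone-level means, which left 11200 features. Tests were limma 3.58.1 (R 4.3.3) fits over all features with Benjamini-Hochberg adjustment, and exact permutation tests. The limma fit was also run on simulated data. Their spread was taken without clone 8, so that run does not check the fits that keep clone 8. The knockdown comparison pooled wild type and empty vector controls; others used a fit of the 4 groups. All 8 measured members were named. Genes named from a list were picked from its 4 of smallest p, and were not always the first of these. Members and lists were chosen with earlier results of these data known. The number of arrays limits the precision.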

Additional observations from a re-analysis of the deposited data

Results flagged for a closer look

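CBX2 in clone 8, at 8.40, lay far from the other 3 knockdown clones, which read 7.61 to 7.72. This was the only such sample among 18 groups of 4 examined, and chance flags about 1 in 20 groups.

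The probe shared by COMMD3 and BMI1 differed between the 2 constructs without clone 8, by 0.87 (SE 0.14, adjusted p = 0.0177 in limma), higher in clone 2 than in clones 9 and 12. On that probe array 1 of clone 2 was 0.81 below the other 2 arrays of the clone. Clone 8, which also carries V2LHS_62673, read 8.32 there, above the clone 2 mean of 8.10. With clone 8 the difference was 0.51 (SE 0.43). Since V2LHS_62675 was a single clone, construct and clone cannot be told apart.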

How the results depend on the processing

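In the knockdown comparison BMI1, EED and EZH1 kept their direction on their own probes under every alternative that gave a value. BMI1 ranged from -0.49 to -0.35, with adjusted p 0.112 to 0.922 in limma. EED ranged from 0.21 to 0.34 and EZH1 from -0.23 to -0.08. EZH1 was not tested with the filter at the 50th percentile. The shared COMMD3 and BMI1 probe, an alternative added after seeing the data, gave -0.06 (SE 0.26). That probe did not follow the BMI1 probe, and its own direction turned under 6 of 22 alternatives. For V2LHS_62675 against the empty vector, BMI1 alone of the members passed under array weights and under the replicate block, at -0.47 each time. Its adjusted p under the replicate block was 0.0402 in limma. Array weights kept the V2LHS_62675 clone as 1 sample, so that pass rests on a single clone. The share of all features that passed under these settings is not given here, so neither pass can be set against it. The replicate block counted the repeat arrays of the single V2LHS_62675 clone as separate samples. Its adjusted p therefore does not measure spread between clones, and no pass at the level of clones can be read from it. With those arrays averaged into 1 sample, BMI1 was at -0.47 (SE 0.22) in the main fit. No pairing by replicate number was seen, as deviations of same-numbered samples correlated at 0.03, -0.15 and -0.23. These values set separate clones against repeat arrays of 1 clone, so they cannot exclude a pairing.

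No member passed in the main fits, so any direction that turned was of a difference that had not passed. Where no construction of the alternative shows it, the cause of a turn was not tested. In the knockdown comparison, without clone 8 and with empty vector controls alone, values were 0.0579 for EZH2, 0.0324 for SUZ12, -0.11 for RING1, -0.18 for CBX2 and -0.13 for PHC2. Median centring gave -0.0135 for RING1, -0.0396 for CBX2 and -0.0612 for PHC2, and array weights gave -0.0827, -0.16 and -0.0924. With every array as a replicate CBX2 stood at -0.0127, PHC2 at -0.0202 and the shared probe at 0.0634, and the shared probe at 0.0358 with empty vector controls alone. For V2LHS_62673 against the empty vector, array weights gave 0.0532 for EZH2, -0.16 for RING1, -0.20 for CBX2 and -0.12 for PHC2, and median centring -0.0386 for CBX2 and -0.0499 for PHC2. Quantile normalization gave -0.0126 for RING1 in V2LHS_62675. PHC2 in wild type cells stood at 0.0057 with quantile normalization, 0.0253 with median centring and 0.0038 with array weights. Between constructs, median centring gave 0.0486 for BMI1 and 0.0641 for EED, and array weights 0.0813 for EED, -0.0011 for EZH1, 0.18 for RING1, 0.0819 for CBX2 and 0.0549 for PHC2.

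Leaving out single samples gave these ranges where a direction turned. In the knockdown comparison they were -0.16 to 0.10 for CBX2, -0.13 to 0.0835 for PHC2, -0.13 to 0.15 for RING1 and -0.26 to 0.13 for the shared probe. For V2LHS_62673 they were -0.21 to 0.18 for CBX2, -0.67 to 0.0183 for EZH2, -0.16 to 0.16 for PHC2 and -0.16 to 0.25 for RING1. RING1 ranged from -0.0638 to 0.12 for V2LHS_62675, and PHC2 from -0.0709 to 0.0297 in wild type cells. Between constructs they were -0.14 to 0.11 for BMI1, -0.30 to 0.0929 for CBX2, -0.10 to 0.0584 for EED, -0.0096 to 0.0482 for EZH1, -0.24 to 0.0847 for PHC2 and -0.24 to 0.17 for RING1.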
